A study of Homo sapiens with 6 samples.

Results

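The mitochondrial respiratory chain was examined in U87MG, an established human glioblastoma cell line, through the 81 nuclear genes of the comparison table whose symbols name subunits of complexes I to V. They were chosen by symbol alone (NDUFA, NDUFB, NDUFC, NDUFS and NDUFV genes with a number, SDHA to SDHD, UQCR genes, COX4 to COX8 genes with a letter from A to C, and ATP5 genes), out of 27257 genes with a line in at least 1 library. The same patterns matched 2 further symbols, which were left out as pseudogenes or antisense RNAs. Complex I had 37 members, complex II 4, complex III 9, complex IV 12 and complex V 19. Total RNA was sequenced 24 h after infection, from 3 libraries of cells that received the control virus (U87MG-control) and 3 of cells that received an LMO2 lentivirus (U87MG-LMO2). Both groups thus carried a virus, cells of a single line were used, and the labels name no batch. The question of the comparison was which genes differ in level when LMO2, a LIM-domain adaptor protein, is overexpressed.

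Complexes I to IV of the inner mitochondrial membrane pass electrons from NADH and succinate to oxygen, and complexes I, III and IV pump protons while they do so. Complex V, the ATP synthase, lets the protons flow back and uses that flow to make ATP. Most subunits are encoded in the nucleus, translated on cytosolic ribosomes and imported, and they are joined in the mitochondrion to a core of subunits that the mitochondrial genome encodes. Gliomas are known for strong glycolysis, while respiration also supplies ATP and precursors in such cells.

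Depth ranged from 11428432 to 17892955 expected counts per library, and the 81 genes took between 0.756% and 0.811% of them. LMO2 checked the labels, with 5 to 11 counts in the U87MG-control libraries and 4503 to 14570 counts in the U87MG-LMO2 libraries (log2 fold change 9.70, edgeR adjusted p = 4.13e-04). Of the markers, VIM had a mean of 11040 CPM (read counts scaled to a common library size with edgeR) and CD44 1157 CPM in U87MG-control, and NES had 44.5 CPM. SOX2 had 0 to 4 counts per library, OLIG2 had a mean of 0.992 CPM in U87MG-control, and GFAP had 5 to 13 counts in the 5 libraries that could be read, so these neural and astrocytic markers were almost absent from the line. The markers of blood cells (PTPRC), epithelium (EPCAM) and neurons (RBFOX3) had at most 9.98 counts in any library, and PECAM1, which marks endothelium, had a mean of 5.02 CPM in U87MG-control. U87MG-LMO2 replicate 3 stood apart from the other libraries. It had 877.9 CPM of LMO2, against 333.0 and 307.0 CPM in replicates 1 and 2. Whether its other differences go with its LMO2 level was not tested. The SD of its log2 CPM values around the control mean, over the 78 members tested, was 0.513, against 0.234 and 0.21 in replicates 1 and 2. In the controls it was 0.105 to 0.121, but that mean includes each control itself, and the U87MG-LMO2 values include the difference between groups. U87MG-LMO2 replicate 3 was the library farthest from the other 2 of its group for 51 of the 78 members (65.4%), compared with 55.2% of all genes tested. Among the controls, replicate 1 was the farthest for 48.7% of the members and 51.6% of all genes. Without U87MG-LMO2 replicate 3, the log2 fold change of 41 of the 78 members moved by over 1.5 times or changed sign. It changed sign in 9, and such values are given beside the members described. The same count was not made over all genes or without another library.

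The respiratory chain genes were expressed at a high level in both groups, and few of them differed between the groups. By edgeR's quasi-likelihood test on the counts, with the Benjamini-Hochberg adjustment over all 16092 genes tested, 5 of the 78 members tested passed an adjusted p of 0.05 (6.41%), against 7.48% of all genes tested. Higher in U87MG-LMO2 were 2 of the 78, NDUFA7 of complex I and ATP5D of complex V, against 4.72% of all genes, and lower were 3 of the 78, ATP5E, ATP5J2 and ATP5H of complex V, against 2.75% of all genes. The share of members called was thus near the background. At an unadjusted p under 0.05, 7 members were higher and 16 lower, beside 2221 higher and 1922 lower of all 16092 genes tested. The median log2 fold change over the members was -0.069, beside -0.011 over all genes tested, with 30 members above 0 and 48 below. The other 3 members were too low to be tested. COX7A1, a subunit isoform known from heart and skeletal muscle, had 3 to 14 counts per library, UQCRHL, an intronless copy of UQCRH, had 0 to 1.91 expected counts, and ATP5L2, a copy of the subunit g gene ATP5L, had 0.35 to 4.79. A library with 0 counts allows up to 3 counts of a gene, for counting error only. In bulk RNA, a change in the number of cells of a kind and a change in RNA per cell cannot be told apart. No label says that the 3 libraries of a group came from separate cultures, so the p-values measure only the spread between these libraries, which may be technical.

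**Figure D1:**
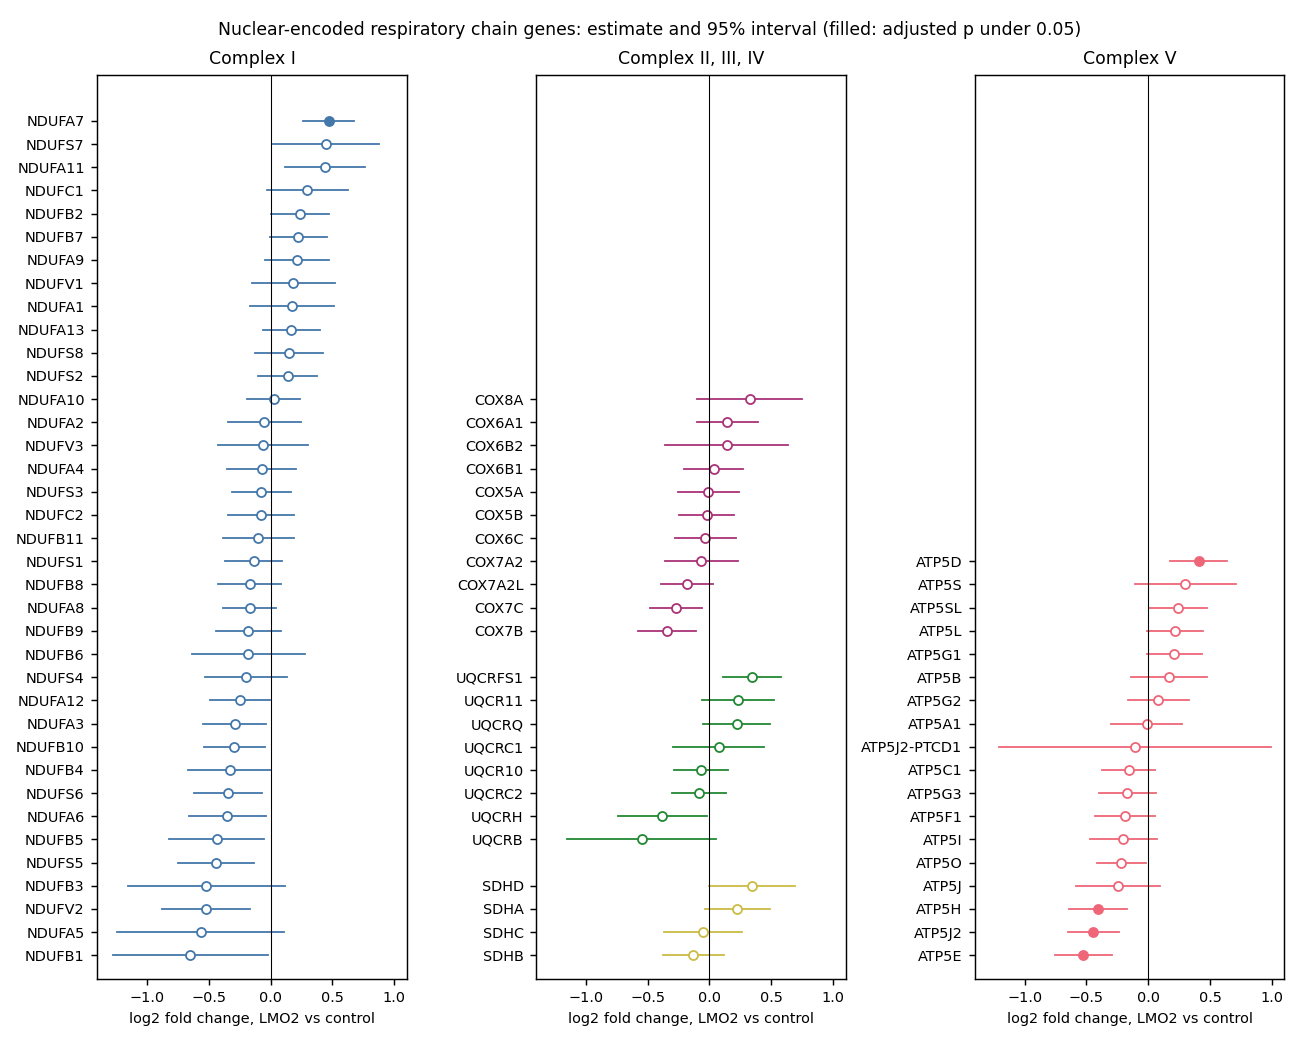
Fitted log2 fold change (x axis, U87MG-LMO2 against U87MG-control) of each of the 78 tested members, with its 95% interval as a line, ordered within each complex. The 5 filled points passed an adjusted p of 0.05, of which NDUFA7 and ATP5D lie above 0 and ATP5E, ATP5J2 and ATP5H below 0.

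The called members of complex V belonged to different regions of the enzyme. The F1 part in the matrix, which makes ATP, is built of alpha and beta subunits around a central stalk of gamma, delta and epsilon. ATP5D (513, now ATP5F1D) encodes the delta subunit and ATP5E (514, now ATP5F1E) the epsilon subunit, which sit side by side at the foot of that stalk. ATP5D had 189.0, 194.6 and 177.1 CPM in U87MG-control replicates 1 to 3 and 230.2, 241.9 and 271.7 CPM in U87MG-LMO2 replicates 1 to 3. All 3 U87MG-LMO2 libraries were above all 3 controls, by a factor of 1.33 (log2 fold change 0.41, SE 0.10, adjusted p = 0.0463). ATP5E went the opposite way, with 124.0, 109.3 and 119.9 CPM in U87MG-control, against 82.1, 87.5 and 75.7 CPM in U87MG-LMO2. Its groups did not overlap either, and its ratio was 0.694 (log2 fold change -0.53, SE 0.10, adjusted p = 0.0226). The ratio of ATP5D to ATP5E reads was therefore 1.48 to 1.78 in the controls and 2.77 to 3.59 in U87MG-LMO2, although the subunits are made for the same stalk. The ratio is a description of these libraries, because both genes were chosen for their change. The transcripts of ATP5D had the highest GC content (the share of G and C bases) of all members, 67.5%, and those of ATP5E had 39.0%, among the lowest.

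ATP5J2 (9551, now ATP5MF) encodes subunit f in the membrane part of the ATP synthase. It had 168.0, 170.3 and 169.7 CPM in U87MG-control, against 117.5, 124.1 and 131.4 CPM in U87MG-LMO2. The control libraries were nearly equal, and every U87MG-LMO2 library was below them (log2 fold change -0.45, SE 0.09, adjusted p = 0.0272). ATP5J2 shares exons with the readthrough gene ATP5J2-PTCD1, for which the counting gave 237.46 to 488.03 expected counts in the controls and 505.25, 520.42 and 125.67 in U87MG-LMO2. When the counts of both genes were added, a step chosen after seeing the data, the sum was 187.6 to 206.6 CPM in U87MG-control, against 139 to 159.5 CPM in U87MG-LMO2, and the call was kept (log2 fold change -0.39, adjusted p = 0.0457). ATP5H (10476, now ATP5PD) encodes subunit d of the peripheral stalk, the side arm that holds F1 still. Its 83.4, 70.6 and 74.8 CPM in U87MG-control stood against 56.3, 61.3 and 54.6 CPM in U87MG-LMO2, again without overlap (log2 fold change -0.41, SE 0.10, adjusted p = 0.0485). ATP5H was not called by limma on log2(FPKM + 1) (adjusted p = 0.0555), nor by edgeR without a filter on low counts (adjusted p = 0.0624).

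NDUFA7 (4701) was the called member outside complex V. It encodes an accessory subunit in the matrix arm of complex I, the arm that takes electrons from NADH. It had 44.6, 42.8 and 42.5 CPM in U87MG-control, against 59.0, 59.6 and 61.3 CPM in U87MG-LMO2. Its spread within groups was small (SD 1.15 and 1.16 CPM), the groups were well apart, and the mean was higher by a factor of 1.39 (log2 fold change 0.47, SE 0.09, adjusted p = 0.0228).

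**Figure D2:**
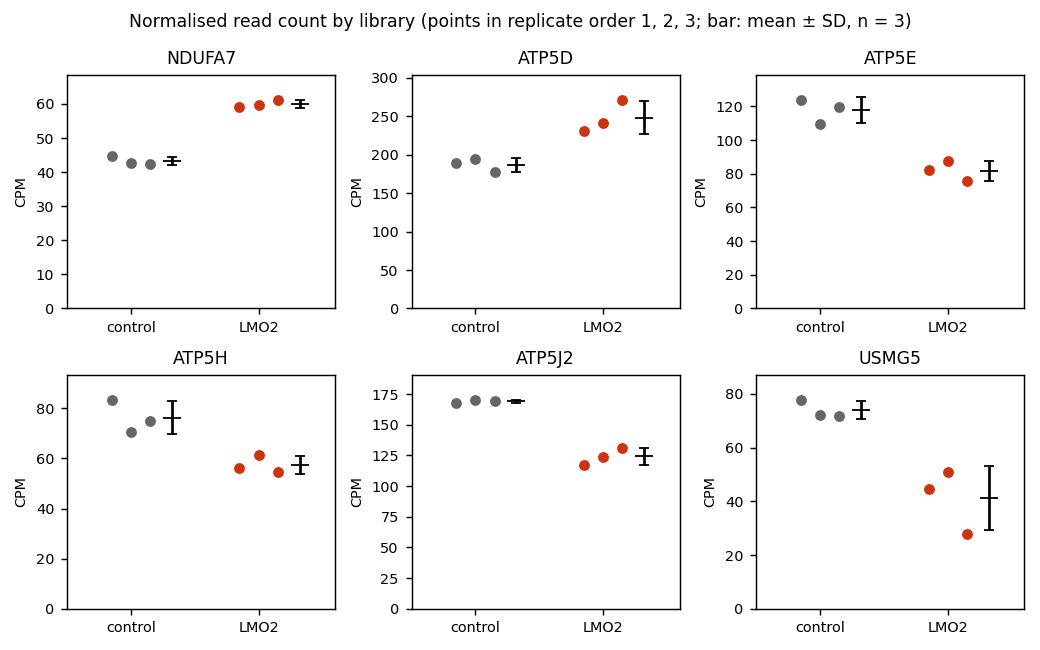
Normalised read count in CPM (y axis, from 0) of the 5 called members and of USMG5, a further ATP synthase gene, in each library, with the mean ± SD (n = 3) beside the points. The groups do not overlap in any of the 6 panels, and replicate 3 of U87MG-LMO2 is at 27.8 CPM for USMG5, the lowest of the 6 libraries.

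The calls depended on the libraries used. Without U87MG-LMO2 replicate 3, all 5 were kept and 3 members, COX7B, NDUFA3 and NDUFV2, joined them on the lower side, while 14.9% of all genes were called. Without U87MG-LMO2 replicate 2, 1 higher and 2 lower members were called (NDUFA7, ATP5E and NDUFS5), 3.85% of those tested, against 5.58% of all genes. When U87MG-LMO2 replicate 1 or any of the 3 control libraries was left out, 0 members were called by edgeR, and the share of all genes called fell to between 0.895% and 1.37%. At an unadjusted p under 0.05, 3 to 8 members were higher and 8 to 10 lower in these fits. The unadjusted count over all genes was not made there, so these counts have no background beside them. The log2 fold changes moved little in these fits: 0.46 to 0.49 for NDUFA7, 0.34 to 0.46 for ATP5D, -0.58 to -0.47 for ATP5E, -0.49 to -0.41 for ATP5J2 and -0.46 to -0.34 for ATP5H.

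Promoters are shown for the 3 called members with an entry in the RefSeq promoter table (GRCh38.p14), to set genes that differed in opposite directions side by side. ATP5D and ATP5J2 are named only. Each run gives the 250 bases before the annotated start, 5′ to 3′ on the gene's strand, and all 3 genes lie on the minus strand, NDUFA7 at chr19:8321376-8321625, ATP5E (ATP5F1E) at chr20:59032336-59032585 and ATP5H (ATP5PD) at chr17:75046970-75047219. Capitals mark a match to the NRF1 motif GCGCNNGCGC, the ETS motif CCGGAAG, which the factor GABP is known to bind, or the YY1 motif AAGATGG, on either strand.
NDUFA7: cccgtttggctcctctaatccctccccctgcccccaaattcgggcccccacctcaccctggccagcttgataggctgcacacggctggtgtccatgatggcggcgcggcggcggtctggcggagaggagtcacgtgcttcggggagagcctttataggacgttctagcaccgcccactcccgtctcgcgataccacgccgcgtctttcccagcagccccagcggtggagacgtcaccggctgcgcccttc
ATP5E: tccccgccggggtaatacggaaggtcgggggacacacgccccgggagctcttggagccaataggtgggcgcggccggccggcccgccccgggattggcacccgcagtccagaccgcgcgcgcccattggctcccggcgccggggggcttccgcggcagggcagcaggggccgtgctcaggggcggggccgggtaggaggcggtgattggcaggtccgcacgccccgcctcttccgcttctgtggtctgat
ATP5H: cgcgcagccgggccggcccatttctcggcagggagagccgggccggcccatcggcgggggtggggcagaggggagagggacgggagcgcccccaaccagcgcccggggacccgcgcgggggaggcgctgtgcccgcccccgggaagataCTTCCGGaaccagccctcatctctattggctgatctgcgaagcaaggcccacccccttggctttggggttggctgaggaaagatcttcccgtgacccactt
The GC content of these windows was 66.8% for NDUFA7, 74.8% for ATP5E and 70.8% for ATP5H, so ATP5E combined the most GC-rich of these promoters with an AT-rich transcript. ATP5H held 1 ETS match, which starts 101 bases before the transcription start, and the letters of these 3 motifs were not in the windows of NDUFA7 and ATP5E. Over the 64 members with an entry, 14 windows (21.9%) held the NRF1 letters and 16 (25.0%) the ETS letters, against 7.54% and 8.78% of all 27167 promoters of the same length. The YY1 letters were in 4 member windows (6.25%, against 3.77% of all). The letters GGGCGG, which SP factors are known to bind, were in 35 windows (54.7%, against 42.2% of all). Matches to different motifs shared bases in 1 of the 64 member windows (1.56%, against 0.39% of all). The median GC content of the windows was 60.8% for the 64 members and 57.6% for all 27167 promoters, which were taken whether or not the gene was expressed. Whether that difference goes with the shares of matches was not tested. A match is a string of letters and says nothing of binding in these cells.

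Of the other 14 members of complex V tested, 6 had a log2 fold change above 0 and 8 below, and none passed the test. ATP5B, the catalytic beta subunit, was the most abundant member per transcript length, with a mean of 528.5 FPKM (the deposited unit, scaled to depth and to gene length) in U87MG-control. It had 808, 1036 and 1070 CPM in U87MG-control, against 989, 1060 and 1226 CPM in U87MG-LMO2, with groups that overlapped (log2 fold change 0.17, 95% interval -0.14 to 0.48, and 0.08 without U87MG-LMO2 replicate 3). The alpha subunit gene ATP5A1 had a log2 fold change of -0.01 (-0.14 without replicate 3) and the gamma subunit gene ATP5C1 one of -0.16, and neither passed the test. The c subunit, whose ring turns with the proton flow, is encoded by 3 genes that give the same mature protein. ATP5G1 had 88.6 to 97.2 CPM in U87MG-control, against 99.9 to 114.5 CPM in U87MG-LMO2, ATP5G2 had 134.7 to 163.3 and 147.5 to 165.9 CPM, and ATP5G3 had 133.6 to 158.6 and 124.9 to 128.3 CPM. The libraries of ATP5G1 were all higher and those of ATP5G3 all lower than the controls, but none of the 3 genes passed the test (log2 fold changes 0.21, 0.08 and -0.17, adjusted p = 0.215, 0.676 and 0.327 by edgeR), and the value of ATP5G2 was 0.14 without replicate 3. In the peripheral stalk, the OSCP gene ATP5O, the subunit b gene ATP5F1 and the F6 gene ATP5J had log2 fold changes of -0.22, -0.19 and -0.25 beside the called ATP5H, and in the membrane part the subunit e gene ATP5I had -0.20 and the subunit g gene ATP5L 0.22. Without replicate 3, ATP5F1 had -0.11 and ATP5J -0.09. ATP5O was the tightest of these, with 75.8 to 79.8 CPM in U87MG-control, against 66.4 to 68.1 CPM in U87MG-LMO2 (adjusted p = 0.157). ATP5S and ATP5SL, which the symbol pattern took in but which are now named DMAC2L and DMAC2 and are not ATP synthase subunits, had log2 fold changes of 0.30 and 0.24. Over the 18 members of complex V tested, the median log2 fold change was -0.133, and without ATP5S, ATP5SL and the readthrough gene it was -0.170 over 15. Complex V had 4 of the 5 calls, 22.2% of its members tested, against 7.48% of all genes. Summed over its members, it held 2864 ± 170 CPM (SD, n = 3) in U87MG-control, against 2906 ± 164 CPM in U87MG-LMO2, a ratio of 1.015.

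Further subunits of the ATP synthase membrane part lie outside the symbol rule. USMG5 (84833, now ATP5MK), which encodes DAPIT, a small subunit known for a part in holding ATP synthase dimers together, had 77.7, 72.1 and 71.8 CPM in U87MG-control, against 44.6, 51.1 and 27.8 CPM in U87MG-LMO2. It was lower in every U87MG-LMO2 library, most of all in replicate 3 (log2 fold change -0.84, SE 0.20, adjusted p = 0.0392), and by limma on log2(FPKM + 1) it was not called. It was called with the GC content trend of each library removed (adjusted p = 0.0309), and not called when U87MG-LMO2 replicate 1 or any control was left out (adjusted p from 0.106 to 0.138). Without replicate 3 its log2 fold change was -0.63. C14orf2 (9556, now ATP5MJ), which encodes a small proteolipid of the same part, had a log2 fold change of -0.14, or -0.07 without replicate 3, and was not called. The gene of the ATP synthase inhibitor, ATPIF1 (93974, now ATP5IF1), had 727, 917 and 843 counts in U87MG-control and 1043 and 870 counts in U87MG-LMO2 replicates 1 and 2. It was not tested, because its line of U87MG-LMO2 replicate 3 was among those lost from a damaged table.

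Complex I, which takes electrons from NADH and passes them to ubiquinone, had 1 call among its 37 members, with 13 log2 fold changes above 0 and 24 below and a median of -0.099. At an unadjusted p under 0.05, 4 members were higher and 9 lower, beside 2221 higher and 1922 lower of all 16092 genes. DESeq2 called NDUFA7 higher and NDUFS5 and NDUFV2 lower, while it called 10.5% of all genes. The core subunits that carry the flavin and the iron-sulphur clusters (NDUFS and NDUFV genes, with a few accessory members) ran from -0.52 to 0.45. NDUFV2, an iron-sulphur subunit of the NADH-oxidising part, had 88.5, 74.5 and 74.2 CPM in U87MG-control, against 60.3, 62.2 and 42.3 CPM in U87MG-LMO2. It was lower in all U87MG-LMO2 libraries but missed the threshold (log2 fold change -0.52, SE 0.16, adjusted p = 0.0790). NDUFV1, the flavin-binding partner of NDUFV2 in that part, had 320.4 to 386.0 CPM in U87MG-control, against 359 to 502 CPM in U87MG-LMO2, with a log2 fold change of 0.18, or 0.02 without replicate 3. NDUFS7, an iron-sulphur subunit next to the ubiquinone site, had 76.0, 94.6 and 91.0 CPM in U87MG-control, against 94.9, 104.2 and 157.2 CPM in U87MG-LMO2, with replicate 3 far above the other libraries (log2 fold change 0.45, adjusted p = 0.178, and 0.19 without it). NDUFS8, the most abundant complex I gene per length (342.4 FPKM in U87MG-control), had a log2 fold change of 0.15 (95% interval -0.13 to 0.43), which was 0.03 without replicate 3.

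Among the accessory subunits of complex I, NDUFA11 had 132.3 to 161.0 CPM in U87MG-control, against 169.2 to 233.0 CPM in U87MG-LMO2, without overlap but short of the threshold (log2 fold change 0.44, SE 0.14, adjusted p = 0.0951, and 0.29 without replicate 3). NDUFS5 had 115.5, 99.8 and 105.6 CPM in U87MG-control, against 78.8, 91.9 and 65.2 CPM in U87MG-LMO2 (log2 fold change -0.44, SE 0.14, adjusted p = 0.0815). Of the 11 NDUFB genes, which sit in the membrane arm, 9 had a log2 fold change below 0, with a median of -0.180. NDUFB1 was the lowest of all members, with 21.6, 16.8 and 17.1 CPM in U87MG-control, against 14.2, 14.7 and 6.57 CPM in U87MG-LMO2. The log2 fold change of NDUFB1 was -0.65 (SE 0.28, adjusted p = 0.180), and replicate 3 lay far below the other libraries. Without that library it was -0.36. NDUFB2 and NDUFB7 were the members of this group above 0, at 0.24 and 0.22. The 13 NDUFA genes were more evenly placed, with 6 above 0 and 7 below. NDUFA4, which is now counted with complex IV, had 57.2 to 76.9 CPM in U87MG-control, against 61.1 to 63.3 CPM in U87MG-LMO2 (log2 fold change -0.07, 95% interval -0.35 to 0.21), and its sign turned when control replicate 1 was left out (0.06). Outside the rule, NDUFAB1, the mitochondrial acyl carrier protein, had a log2 fold change of 0.27, or 0.40 without replicate 3, and NDUFA4L2 stood near 1 CPM in both groups (means 1.11 and 1.43 CPM), and neither was called.

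Complex II, which oxidises succinate in the citric acid cycle and is encoded in the nucleus alone, had 0 of 4 members called by edgeR, by DESeq2 or at an unadjusted p under 0.05. SDHA, the flavoprotein, had 209.0, 251.0 and 257.1 CPM in U87MG-control, against 258.8, 300.6 and 279.7 CPM in U87MG-LMO2, just apart between the groups (log2 fold change 0.23, 95% interval -0.03 to 0.49). SDHB, the iron-sulphur subunit, had 54.3 to 63.3 CPM in U87MG-control, against 49.4 to 57.4 CPM in U87MG-LMO2 (log2 fold change -0.13, or -0.08 without U87MG-LMO2 replicate 3). The membrane anchors SDHC and SDHD had log2 fold changes of -0.05 (-0.37 to 0.26) and 0.34 (-0.01 to 0.69), and without U87MG-LMO2 replicate 3 they were 0.05 and 0.20. SDHD ran from 19.7 to 24.2 CPM in U87MG-control and from 23.6 to 33.3 CPM in U87MG-LMO2, so its groups overlapped.

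Complex III, which passes electrons from ubiquinol to cytochrome c, had 0 of 8 tested members called by edgeR, by DESeq2 or by limma, with 1 higher and 1 lower at an unadjusted p under 0.05. Its median log2 fold change was 0.004, and its ends lay far apart. UQCRFS1, the Rieske iron-sulphur protein, had 93.0, 103.8 and 93.6 CPM in U87MG-control, against 111.5, 126.7 and 131.0 CPM in U87MG-LMO2 (log2 fold change 0.35, SE 0.10, adjusted p = 0.0787). The groups were apart, yet the gene did not pass. UQCRB, a ubiquinone-binding subunit, had 65.5, 55.4 and 55.6 CPM in U87MG-control, against 44.8, 53.4 and 22.5 CPM in U87MG-LMO2. It had the lowest log2 fold change of the complex, -0.55 with an SE of 0.27, which was -0.26 without U87MG-LMO2 replicate 3. UQCRH, the hinge protein and the most abundant gene of the complex per length (162.3 FPKM in U87MG-control), had 93.5 to 103.7 CPM in U87MG-control, against 56.7 to 89.2 CPM in U87MG-LMO2 (log2 fold change -0.38, adjusted p = 0.173, and -0.21 without replicate 3). The core proteins UQCRC1 and UQCRC2 stood at 0.07 and -0.08, and UQCRC1 was at -0.13 without replicate 3. CYC1, the cytochrome c1 gene outside the rule, had a log2 fold change of 0.29 and its partner CYCS, cytochrome c, one of -0.41, and neither passed the test (adjusted p = 0.216 and 0.295). Without replicate 3 they were at 0.18 and -0.16.

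Complex IV, which hands the electrons to oxygen, had 0 of 11 tested members called by edgeR or DESeq2, with 2 lower at an unadjusted p under 0.05, and 1 lower by limma on log2(FPKM + 1), COX7B. COX7B had 158.7, 157.6 and 169.1 CPM in U87MG-control, against 114.7, 127.7 and 139.8 CPM in U87MG-LMO2. All U87MG-LMO2 libraries were below the controls, and edgeR's adjusted p was 0.0808 (log2 fold change -0.34, SE 0.10). COX7C was just as regular, with 49.0 to 50.1 CPM in U87MG-control, against 39.4 to 42.1 CPM in U87MG-LMO2 (log2 fold change -0.27, SE 0.09, adjusted p = 0.114). At the other end, COX8A, the most abundant gene of the complex per length (428.8 FPKM in U87MG-control), had 184.4, 217.9 and 226.9 CPM in U87MG-control, against 207.3, 233.7 and 347.4 CPM in U87MG-LMO2, so its log2 fold change of 0.33 rested on replicate 3 and was 0.07 without it.

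Several complex IV subunits exist as isoforms of different tissues, and where another isoform could be set beside it, the isoform known from most tissues carried the reads. COX6A1 had 135.4 to 152.3 CPM in U87MG-control, against 145.1 to 176.4 CPM in U87MG-LMO2 (log2 fold change 0.14, or 0.06 without U87MG-LMO2 replicate 3). COX6B1 had a mean of 337.1 FPKM in U87MG-control and COX6B2, known from testis, 2.31 FPKM, and their log2 fold changes were 0.03 and 0.14, or -0.06 and 0.24 without replicate 3. COX7A2 and COX7A2L, the second of which is known as an assembly factor of supercomplexes, had log2 fold changes of -0.06 and -0.18 (0.03 for COX7A2 without replicate 3), while the muscle isoform COX7A1 was at the few counts given above. COX6A2, COX7B2 and COX8C were not analysed here. COX4I1, whose symbol has a letter that the pattern does not take, had 228.0, 223.3 and 252.0 CPM in U87MG-control, against 217.2, 228.4 and 255.8 CPM in U87MG-LMO2 (log2 fold change -0.0040, 95% interval -0.24 to 0.23, and -0.07 without replicate 3), and COX4I2, an isoform known from lung, had at most 1 count in any library.

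Over all members, the groups were alike in total level, a measure in which the most abundant genes weigh most. The members tested summed to 7826 ± 267 CPM (SD, n = 3) in U87MG-control, against 7961 ± 525 CPM in U87MG-LMO2, a ratio of 1.02. The sums of complex I were 2725 ± 21.6 and 2747 ± 156 CPM, of complex II 354 ± 29.1 and 394.5 ± 25.5 CPM, of complex III 806 ± 24.6 and 819 ± 75.9 CPM, and of complex IV 1077 ± 28.1 and 1094 ± 124.5 CPM. In each sum except that of complex II the difference between the groups was smaller than the SD of U87MG-LMO2. The medians of the members' log2 fold changes were 0.086 in complex II and -0.021 in complex IV. Per length the members were high, with a median of 78.0 FPKM in U87MG-control against 6.21 FPKM over all genes tested, and 74 of the 78 were above the latter. The median SE of the log2 fold change was 0.116 against 0.169 over all genes. Of the 78 95% intervals, 53 (67.9%) lay within a 1.5-fold change in either direction, against 40.9% of all genes. Within a 2-fold change lay 73 (93.6%), against 77.5% of all genes. The SEs take in the spread of replicate 3.

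Although few genes passed the test, the groups were apart for many. In 39 of the 78 members (50.0%) the U87MG-control and U87MG-LMO2 libraries did not overlap in CPM, against 34.1% of all genes tested. In 15 of the 78 U87MG-LMO2 was higher and in 24 lower, beside 2815 higher and 2668 lower of all 16092 genes tested. By complex these were 20 of 37 in complex I (8 higher, 12 lower), 1 of 4 in complex II (higher) and 4 of 8 in complex III (1 higher, 3 lower). In complex IV they were 3 of 11 (all lower), and in complex V 11 of 18 (5 higher, 6 lower).

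**Figure D3:**
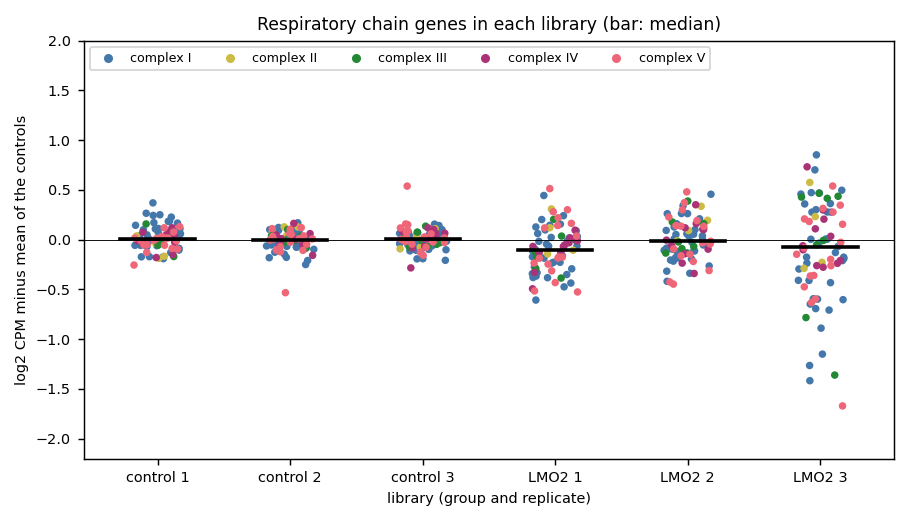
Log2 CPM of each of the 78 tested members minus its mean over the 3 controls (y axis), in each of the 6 libraries (x axis), with points coloured by complex and a bar at the median. The medians stay between -0.102 and 0.009, while the points of U87MG-LMO2 replicate 3 spread most, with an SD of 0.513.

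The members' differences followed the GC content of their transcripts. The Pearson correlation of log2 fold change with GC content across the 78 members was 0.544 (Spearman's rho 0.51), and across the 14458 tested genes with a known GC content it was 0.344 (0.42). The points share the same 6 libraries and are no independent replicates, so no p is given. The 19 members under 45% GC had a median log2 fold change of -0.201, with 18 below 0, and all 4247 genes in that range had -0.178. Between 45% and 50% the medians were -0.130 for 23 members and -0.064 for the genes, and between 50% and 55% they were 0.012 for 18 members and 0.035. From 55% upwards, 18 members had a median of 0.176, with 13 above 0, and the genes had 0.175. The medians of the members thus rose with GC content as those of all genes did, and the gap between them was widest between 45% and 50%. The relation was also present between the controls and U87MG-LMO2 replicates 1 and 2 alone (Pearson 0.457, Spearman 0.449 over 78 members). Within single libraries, log2 CPM relative to the mean of all 6 libraries correlated with GC content over all genes at -0.405, -0.227 and -0.302 in the controls and at 0.201, -0.043 and 0.516 in U87MG-LMO2.

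**Figure D4:**
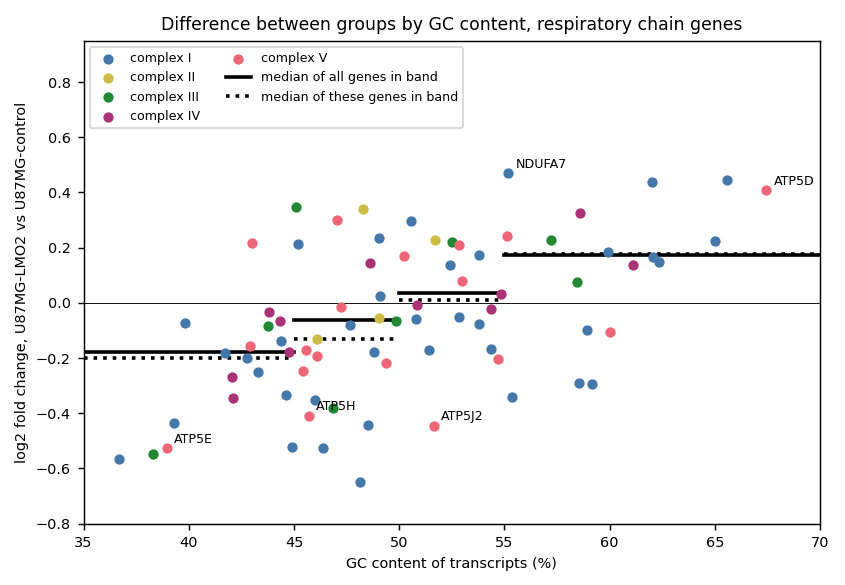
Log2 fold change (y axis) of the 78 tested members against the GC content of their transcripts in percent (x axis), coloured by complex, with the 5 called genes named. Solid bars give the median over all genes and dotted bars the median over these genes in each GC range, and both rise from about -0.2 under 45% to 0.18 from 55% upwards.

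With each library's trend of log2 CPM on GC content removed, a step chosen after seeing the data, 1 member was called by edgeR, NDUFA7 (adjusted p = 0.0369). That was 1.28% of the members tested, against 4.79% of all genes. The members' log2 fold changes were split into 37 above 0 and 41 below. ATP5J2 then had an adjusted p of 0.0519 with a log2 fold change of -0.42, close to the -0.45 of the uncorrected fit. ATP5H had an adjusted p of 0.152 (log2 fold change -0.27), ATP5E 0.206 (-0.25) and ATP5D 0.417 (0.15). Log2 length correlated with the differences at 0.074 (Pearson) and 0.175 (Spearman) across the members, and at -0.035 and -0.049 across all genes tested. With each library's trend on length removed, edgeR called ATP5E and NDUFA7, 2.56% of the members tested, against 5.9% of all genes. In that fit ATP5D, ATP5J2 and ATP5H had adjusted p of 0.0634, 0.0706 and 0.081.

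Genes around the respiratory chain were taken from lists of fixed members. Regulators of respiratory genes had 0 of 24 tested genes called by edgeR, DESeq2 or limma, with 3 higher and 4 lower at an unadjusted p under 0.05. With each library's trend on GC content removed, edgeR called 1 of the 24 higher, in a fit that called 4.79% of all genes. NRF1 and GABPA, transcription factors of many respiratory genes, had log2 fold changes of 0.04 and -0.10, GABPB1 -0.06 and YY1 0.10. The coactivators PPARGC1A, PPARGC1B and PPRC1 had -0.11, -0.36 and 0.08, the nuclear receptors ESRRA, PPARA and PPARD 0.31, -0.18 and 0.34, and ESRRG had at most 6 counts in any library and was not tested. Of the mitochondrial DNA and transcription machinery, TFAM had -0.34, TFB1M -0.34, TFB2M -0.35, POLRMT 0.26, POLG 0.03, POLG2 -0.24, MTERF1 (listed as MTERF) -0.22 and the helicase gene TWNK (listed as C10orf2) -0.01. TFAM, which packs mitochondrial DNA, had 12.9 to 15.1 CPM in U87MG-control, against 10.2 to 12.3 CPM in U87MG-LMO2 (adjusted p = 0.169). HIF1A, the hypoxia factor, was the highest of the list, with 277.4 to 350.7 CPM in U87MG-control, against 345.5 to 443.8 CPM in U87MG-LMO2 (log2 fold change 0.39, adjusted p = 0.106), and CREB1 the lowest (-0.37). MYC, MEF2A, SIRT1 and SIRT3 had log2 fold changes of -0.02, 0.17, -0.10 and 0.16. Without U87MG-LMO2 replicate 3, edgeR called HIF1A higher (log2 fold change 0.49, adjusted p = 0.0136) and CREB1 lower (-0.53, adjusted p = 0.0159). That fit called 14.9% of all genes. In the same fit GABPA, GABPB1 and SIRT1 changed sign to 0.03, 0.08 and 0.16, and TFB2M moved to -0.07.

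Assembly factors, which help to put the complexes together, had 0 of 54 tested genes called by edgeR, DESeq2 or limma, with 2 higher and 5 lower at an unadjusted p under 0.05 and a median log2 fold change of -0.115. With each library's trend on GC content removed, edgeR called 1 of the 54 higher, while it called 4.79% of all genes. Without U87MG-LMO2 replicate 3, edgeR called CMC2 higher (log2 fold change 0.51, adjusted p = 0.0138), in a fit that called 14.9% of all genes. In the citric acid cycle, 1 of 19 genes was called. IDH2, the NADP-dependent mitochondrial isocitrate dehydrogenase, had 66.5, 54.3 and 52.0 CPM in U87MG-control, against 78.5, 78.5 and 88.1 CPM in U87MG-LMO2 (log2 fold change 0.51, SE 0.12, adjusted p = 0.0405), and limma on log2(FPKM + 1) did not call it. Without U87MG-LMO2 replicate 3, DLD and PC of this list were called lower as well (adjusted p = 0.0477 and 0.0409). Mitochondrial ribosomal proteins, which serve the translation of the mitochondrially encoded subunits, had 4 of 77 genes lower and 0 higher (3 higher and 15 lower at an unadjusted p under 0.05, and 0 higher and 6 lower by DESeq2), with a median of -0.166. The 4 were MRPL18, MRPS14, MRPL36 and MRPL24, with log2 fold changes of -0.51, -0.57, -0.48 and -0.56. Cytosolic ribosomal proteins had 6 of 82 genes lower and 0 higher by edgeR (27 lower and 3 higher at an unadjusted p under 0.05, and 1 higher and 13 lower by DESeq2), with a median of -0.153. Without U87MG-LMO2 replicate 3, 16 were lower and 1 higher, while 14.9% of all genes were called. The 6 called with all libraries were RPL17, RPL26, RPL30, RPL29, RPL36A and RPL22L1, with log2 fold changes from -0.55 for RPL22L1 to -0.38 for RPL29, and such genes have many processed copies whose reads the counting may split. All 11 called genes of these lists were called without U87MG-LMO2 replicate 3, and 0 of them without U87MG-LMO2 replicate 1 or without any of the controls (adjusted p from 0.0536 to 0.197). With all libraries, edgeR called lower 5.19% of the mitochondrial and 7.32% of the cytosolic ribosomal protein genes, against 2.75% of all genes tested. At an unadjusted p under 0.05, 1922 of all 16092 genes were lower and 2221 higher. DESeq2 called 10.5% of all genes in either direction. The 13 mitochondrially encoded subunits were not analysed here.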

How the data were processed

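Total RNA of U87MG cells was sequenced in 6 libraries of 2 groups. The expected counts that the authors deposited per library are estimated reads per gene, not normalized, and the deposited FPKM values are such reads relative to gene length and depth. The submitters' processing notes name Bowtie2, BWA and GRCh38.p12 without a role. Per the file headers, the table of the comparison holds the authors' mean FPKM values, log2 ratios and probabilities of the groups. It gave the symbols and the means used to find damaged lines, and the ratios and probabilities were not used. The table of U87MG-LMO2 replicate 3 had 3 unreadable lines, and 131 genes whose deposited mean did not match within 0.006 FPKM were left out of tests, 0 of them members. A gene without a line was taken as 0 counts. Whether strand was used in counting is not given in the sources used here.

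Expected counts were rounded and tested with edgeR 4.0.16 (filterByExpr, TMM, glmQLFit and glmQLFTest, 2-sided) in R 4.3.3, adjusted by the Benjamini-Hochberg method over 16092 genes and called at an adjusted p under 0.05. SEs and 95% intervals come from the same fit. GC content was taken from transcripts of GENCODE v29, with a value for 89.8% of the tested genes and for all 81 members. Alternatives used DESeq2 1.42.0, limma 3.58.1 on log2(FPKM + 1) and log2(FPKM + 0.1), other scalings and filters, and a lowess span of 0.3 for trends on length and GC content. The tests were tested on simulated data. The members and lists were chosen with earlier results of these data known. Genes named were LMO2, every called gene, the highest, the lowest and the most abundant member of each complex, all members of complex II, the c subunit and paired isoform genes, NDUFA4, ATPIF1, and all regulators and subunits outside the symbol rule. Other members named were chosen after their values were seen.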

Additional observations from a re-analysis of the deposited data

How the results depend on the processing

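The numbers of members called were the same or within 1.5 times (2 higher and 2 or 3 lower) under upper-quartile normalization, DESeq2 size factors in edgeR, both filters and both limma fits. The genes were not all the same, since both limma fits called COX7B in place of ATP5H and the fit without a filter lost ATP5H. DESeq2 called 5 lower, the gene length correction 1 higher and 1 lower, and the GC content correction 1 higher and 0 lower. The members called in these fits were 8.97%, 2.56% and 1.28% of those tested, against 10.5%, 5.9% and 4.79% of all genes. Leaving out 1 library gave 0 to 2 higher and 0 to 6 lower, with 0.895% to 14.9% of all genes called. The replicate block gave 0 higher and 0 lower, with 576 calls over all genes instead of 1203. At an unadjusted p under 0.05 it had 5 members higher and 15 lower, and that count was not made over all genes. The labels give only a number in common, and same-numbered libraries did not deviate together (correlations -0.117, -0.00342 and -0.0407). Correlations between so few libraries cannot settle whether the numbers pair the samples, and the main fit assumed no pairing. The cause of these changes was not tested.

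The median log2 fold change of complex I (-0.099) was -0.030 under the GC content correction. That of complex IV (-0.021) was -0.064 and -0.065 by limma with pseudocounts of 1 and 0.1 and 0.034 under the gene length correction. That of complex V (-0.133) was -0.195 and -0.198 by limma with the same pseudocounts and 0.017 under the GC content correction. With 1 library left out, the medians ran from -0.161 to -0.075 in complex I, -0.010 to 0.128 in complex II, -0.097 to 0.071 in complex III, -0.062 to 0.002 in complex IV and -0.167 to -0.040 in complex V. LMO2 was called in all 15 alternatives that tested it, and at least 10 counts in every library left it untested.

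Of 465 values of 29 single members, 13 changed sign, all in genes that were not called. Under the GC content correction these were NDUFA4 (0.208), NDUFS8 (-0.030), SDHC (0.010), COX6B1 (-0.003), COX6B2 (-0.009) and COX7A2 (0.098). By limma with both pseudocounts COX6B1 was at -0.015. With 1 library left out, NDUFA4 ran from -0.161 to 0.060, SDHC from -0.198 to 0.052, COX6B1 from -0.062 to 0.092, COX6B2 from -0.007 to 0.241 and COX7A2 from -0.167 to 0.035. The 12 list genes called kept their direction in all 192 values and lost the call in 94. The GC content and readthrough alternatives were chosen after seeing the data. A fit for members with damaged lines was not run, because 0 members were damaged. Depth limits COX7A1, UQCRHL and ATP5L2, at most 14 counts per library.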
